A study of Mus musculus with 2 samples.

Results

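The antioxidant enzymes described here are 38 genes of the peroxiredoxin, glutathione, thioredoxin and superoxide systems, out of 43346 genes measured in G1E cells. They were chosen by name: each listed symbol was matched to its gene row in both libraries, and all 38 had exactly 1 row. G1E is an immortalized mouse line, labelled as a male C57BL/6J erythroid progenitor of postnatal stage (age 0 day) that lacks Gata1, the factor needed for red cell maturation. The labels give 2 biological replicates and no treatment or second line, so every value belongs to that 1 group, and the line is 1 model of a progenitor held before GATA1-driven maturation. Total RNA was depleted of ribosomal RNA, 100 ng entered each library, and 58094631 and 55274368 expected counts fell on genes in replicates 1 and 2. The labels do not say how the cultures were separated, so a spread between replicates may be partly technical.

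Red cells carry oxygen bound to haem iron, and superoxide and hydrogen peroxide arise from that chemistry as well as from mitochondria. Superoxide dismutases turn superoxide into hydrogen peroxide. Catalase, peroxiredoxins and glutathione peroxidases then reduce the peroxide; peroxiredoxins are recharged mostly by thioredoxin and its reductases, glutathione peroxidases by glutathione, and both routes draw on NADPH. Mature red cells, which no longer make RNA, depend on peroxiredoxin 2, catalase and glutathione peroxidase 1 proteins laid down earlier.

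Of the 38 genes, 7 are annotated as selenoproteins, whose active site holds selenocysteine, read from a TGA codon that elsewhere ends translation. The coding sequence around that codon is shown because it is the feature these members share across families. The place of the codon separates members that carry it next to last from members that carry it earlier. TGA is in capitals, up to 24 coding bases precede it, and up to 12 follow; the sequences are from GENCODE release M21 transcripts (GRCm38, mm10), all 7 on the plus strand, with the codon at chr9:108339451-108339453, chr11:54907256-54907258, chr10:80054737-80054739, chr10:82896037-82896039, chr16:18477772-18477774, chr6:89674789-89674791 and chr17:24740158-24740160 in the order given.
Gpx1: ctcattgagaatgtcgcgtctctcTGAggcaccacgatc
Gpx3: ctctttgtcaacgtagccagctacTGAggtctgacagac
Gpx4: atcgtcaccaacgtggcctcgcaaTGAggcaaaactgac
Txnrd1: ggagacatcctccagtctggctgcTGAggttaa
Txnrd2: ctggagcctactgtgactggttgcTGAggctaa
Txnrd3: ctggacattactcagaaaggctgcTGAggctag
Msrb1: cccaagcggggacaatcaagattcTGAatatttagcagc

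The codon lay early in the glutathione peroxidases, at codon 47 of 201 in Gpx1, 73 of 226 in Gpx3 and 73 of 197 in Gpx4. In all 3 thioredoxin reductases it was the last codon but 1, at 498 of 499 in Txnrd1, 526 of 527 in Txnrd2 and 614 of 615 in Txnrd3, so that a single codon separates TGA from the true stop shown at the end of each sequence. In Msrb1 it lay at codon 95 of 116. RNA of 6 of the 7 was detected, and Gpx3 had 0 counts in both libraries. Detected means at least 1 TPM in both libraries; TPM is the estimated reads divided by transcript length and scaled to the same total in every library, so TPM levels can be compared between genes.

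Most of the listed enzymes were detected. At that threshold 31 of 38 members passed, against 38.7% of all 21461 nuclear protein-coding genes. The list was chosen with earlier results of these data known, so this share describes the list and not its families. Of 37 further enzymes of the same families, 14, or 37.8%, were detected. The median member stood at 8.02 TPM, with library medians of 8.06 and 8.11 TPM; the median over all nuclear protein-coding genes was 0.055 TPM. Among detected genes alone the member median was 13.5 ± 1.25 TPM (SD of the 2 library medians), against library medians of 7.34 and 6.60 TPM for all 8303 detected nuclear protein-coding genes. Nuclear protein-coding genes held 18.0% and 17.0% of all TPM, which sets the scale of these values; in TPM rescaled to these genes alone, Gpx1 stood at 1324 ± 89.5 (SD, n = 2). In a bulk library, fewer cells expressing a gene and less RNA per cell cannot be told apart. Together the members held 0.660% and 0.661% of the nuclear protein-coding TPM in replicates 1 and 2. By gene total, Gpx1, Gpx4, Sod1 and Prdx6 supplied 52.7% and 51.8% of the members' summed TPM. No such share was computed for other lists. In gene totals, the same gene stood at each of ranks 1 to 5 and 9 to 14 in both libraries. On protein-coding transcripts alone Prdx3 ranked 4 in both libraries, and Prdx6 ranked 8 and 6 in replicates 1 and 2.

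**Figure D1:**
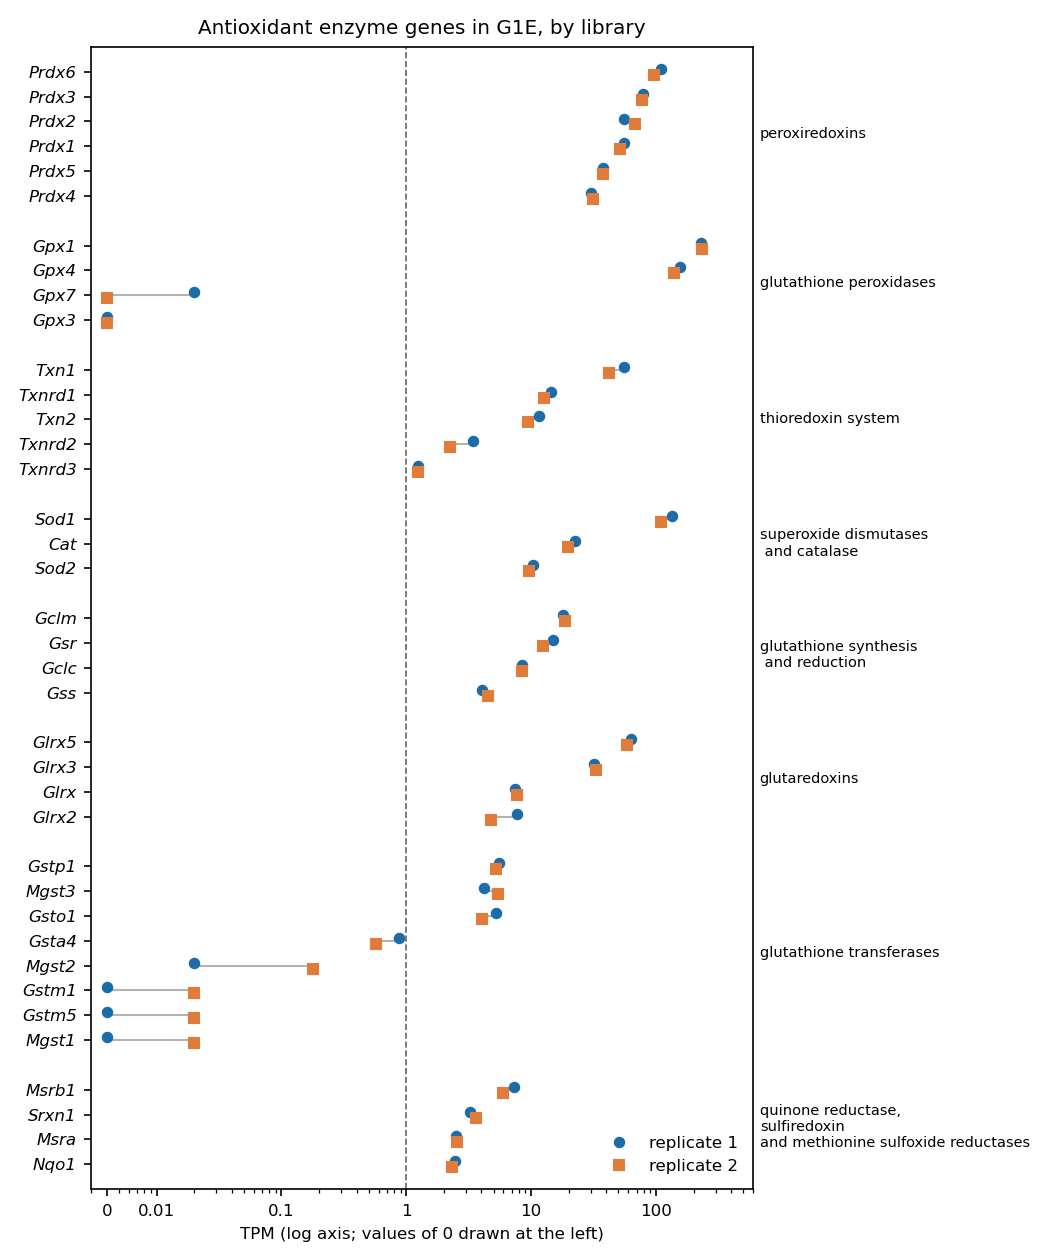
TPM (log axis) of each antioxidant enzyme gene in replicate 1 (circles) and replicate 2 (squares), grouped by role, with the detection threshold of 1 TPM as a dashed line. Gpx1 leads at 228 and 235 TPM, and 7 genes, 5 of them glutathione transferases, lie under the line.

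All 6 peroxiredoxin genes were detected. Prdx6, a peroxiredoxin that uses glutathione and acts on oxidized phospholipids, was highest by gene total with 109.9 and 96.6 TPM in replicates 1 and 2. On protein-coding transcripts alone it had 43.1 and 54.1 TPM, below Prdx3 in both libraries and below Prdx1 in replicate 1. Prdx3, the mitochondrial enzyme, had 78.8 and 77.5 TPM. The 2 libraries barely differed for Prdx3, whereas the cytosolic and red cell enzyme Prdx2 stood at 55.3 TPM in replicate 1 and 67.5 in replicate 2. Prdx1, the widespread cytosolic form, had 55.7 and 51.6 TPM. Prdx5, found in mitochondria, peroxisomes and cytosol, had 37.82 and 37.96 TPM, and Prdx4 of the endoplasmic reticulum had 30.4 and 31.3 TPM. The lowest member of the family thus stood above the median of the detected members. Prdx5 overlaps Trmt112 on the opposite strand (5109 and 4932 counts, against 3963 and 3830 for Prdx5), and Prdx2 likewise overlaps Rnaseh2a and Junb, so reads of these genes are uncertain where they overlap.

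Pairs of members were compared as the log2 ratio of TPM + 1 within each library. A ratio passed when the size of its mean exceeded 3 times the pooled replicate SD of genes at that level, which was 0.15 from 1 to 10 TPM, 0.16 from 10 to 100 and 0.23 from 100 to 1000. Of 22 pairs, 16 passed. In 5 of these the second gene lay under the detection threshold, so a pass says little, and no log2 ratio is given for them. The pairs were chosen with earlier results of these data known, and no share was computed over other gene pairs. The count of 16 therefore describes this list only. Prdx3 exceeded Prdx5 by 1.03 ± 0.02 (SD, n = 2), a ratio of 2.06 in mean TPM; without the length correction the log2 ratio was 2.10. Prdx1 was below Prdx6 by a log2 ratio of -0.93 ± 0.05, but on protein-coding transcripts alone the ratio turned to 0.11, within its limit. Prdx1 and Prdx2 could not be ordered by TPM: their ratio was 0.01 in replicate 1 and -0.38 in replicate 2, within the limit of 0.48. Without the length correction that ratio was 0.61, past its limit.

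Glutathione peroxidases split into a pair of high RNAs and a pair at or near 0. Gpx1 (ENSMUSG00000063856.7, chromosome 9, 108338903 to 108340343, plus strand, mm10), the main cytosolic peroxidase for hydrogen peroxide, was the highest of all 38 members, at 228 and 235 TPM, from 25444 and 26507 expected counts. In the authors' deposited TPM interval, Gpx1 was bounded by 222 and 229 for replicate 1, and by 229.9 and 236 for replicate 2. Gpx4 (ENSMUSG00000075706.6, chromosome 10, 80047166 to 80056439, plus strand), which reduces lipid hydroperoxides in membranes and guards against ferroptosis, followed at 155 and 139 TPM. Gpx1 exceeded Gpx4 in both libraries, but the mean log2 ratio of 0.65 ± 0.15 stayed just under its limit of 0.68; without the length correction it was 0.67, past the limit of 0.42 on that scale. Gpx1 and Gpx4 stood above 98.5% and 97.8% of detected nuclear protein-coding genes.

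Gpx3, the secreted plasma enzyme, had 0 counts in both libraries. Against a chosen floor of 3 counts per library, or 0.0215 and 0.0208 TPM for Gpx3, Gpx1 was 10580-fold and 11324-fold higher in replicates 1 and 2. The deposited TPM interval of Gpx3 reached 0.0582 and 0.0559, above that floor. Read against that interval, the folds would be smaller. Gpx7, a peroxidase of the endoplasmic reticulum that lacks selenocysteine, had 3 counts in replicate 1 and 0 in replicate 2. Prdx4, in the same compartment, had 4005 and 4259 counts.

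In the thioredoxin system the cytosolic form exceeded the mitochondrial one at both levels. Txn1, the cytosolic electron donor, had 55.1 and 42.0 TPM in replicates 1 and 2. Txn2, its mitochondrial counterpart, had 11.7 and 9.36 TPM. Txn1 exceeded Txn2 by 2.10 ± 0.07 (log2), a ratio of 4.62 in mean TPM. Among the reductases that recharge them, the cytosolic Txnrd1 had 14.3 and 12.7 TPM and the mitochondrial Txnrd2 had 3.42 and 2.26. Txnrd3, a thioredoxin and glutathione reductase best known from the testis, was detected just above the threshold, at 1.25 TPM in both libraries. Txnrd1 exceeded Txnrd2 by 1.93 ± 0.20 and Txnrd3 by 2.69 ± 0.11; without the length correction these log2 ratios were 3.65 and 3.59.

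Superoxide dismutase 1, the cytosolic copper-zinc enzyme, was the third member by level. Sod1 had 135 and 110.1 TPM, whereas Sod2, the mitochondrial manganese enzyme, had 10.3 and 9.66 TPM. The log2 ratio was 3.48 ± 0.14, a ratio of 12.2 in mean TPM. Effective lengths were 434 and 455 nt for Sod1, against 3612 and 3633 nt for Sod2. The only Sod2 transcript had 3824 nt as counted and has 5861 nt in GENCODE M21. Without the length correction the log2 ratio was 0.57, still past its limit. The mitochondrial form was thus lower than the cytosolic one for dismutase, thioredoxin and thioredoxin reductase alike, whereas mitochondrial Prdx3 was among the 5 highest members. Catalase (Cat), the haem enzyme of peroxisomes and a major peroxide sink of red cells, had 22.3 and 19.6 TPM. Prdx2 exceeded Cat by 1.27 in replicate 1 and 1.73 in replicate 2 (log2), but without the length correction the ratio was 0.40, within its limit.

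**Figure D2:**
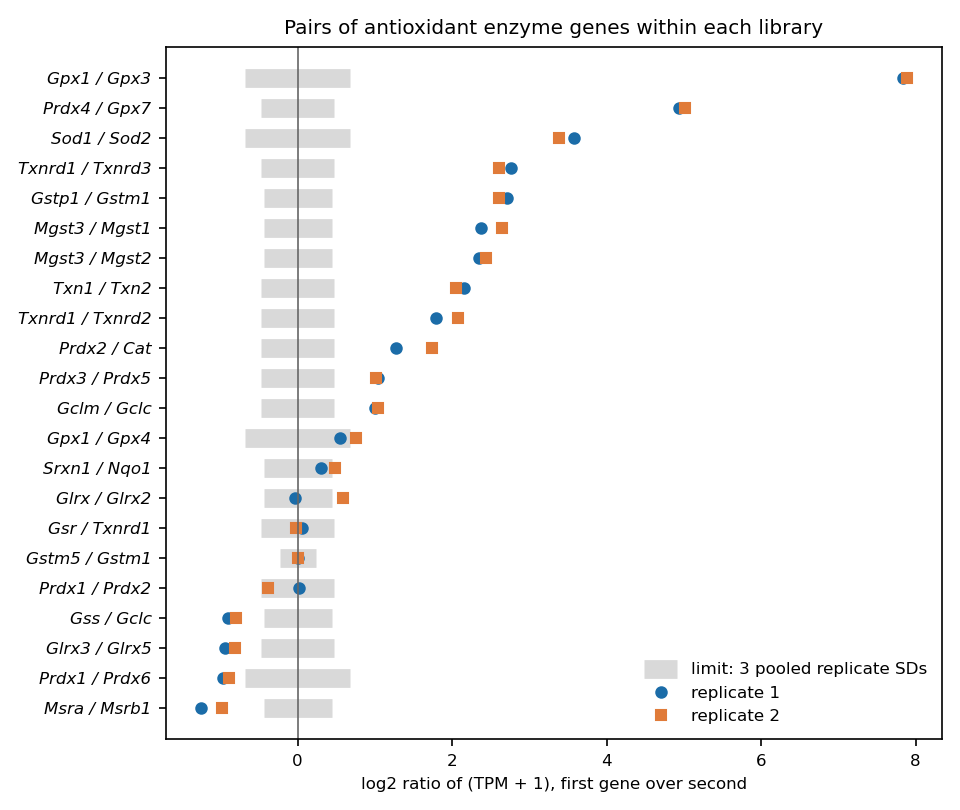
Log2 ratio of TPM + 1, first gene over second, for the 22 pairs in replicate 1 (circles) and replicate 2 (squares); grey bars span the limit of 3 pooled replicate SDs. Sod1 over Sod2 lies at 3.48 on average, outside its bar (0.57 without the length correction, not drawn), while Gsr over Txnrd1 lies at 0.02.

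Genes that make and recycle glutathione were all detected at middle levels. Gclc, the catalytic subunit of the rate-limiting ligase, had 8.47 and 8.51 TPM, and Gclm, its modifier subunit, had 18.0 and 18.6. By gene total Gclm exceeded Gclc by 1.02 ± 0.03, and without the length correction by 0.49. On protein-coding transcripts alone the log2 ratio was 0.19, within its limit, and the main coding transcript Gclm-201 had 7.63 and 6.81 TPM. Gss, which completes the tripeptide, had 4.06 and 4.48 TPM and was below Gclc by a log2 ratio of -0.85 ± 0.08, or -1.99 without the length correction. Gsr, which returns oxidized glutathione to its reduced form, had 15.0 and 12.5 TPM. Gsr and Txnrd1, the NADPH-dependent reductases of the glutathione and thioredoxin routes, could not be ordered by TPM, with ratios of 0.06 in replicate 1 and -0.02 in replicate 2, within the limit of 0.48. Without the length correction Gsr was below Txnrd1 by a log2 ratio of -0.52, past its limit. Gss overlaps Acss2 on the opposite strand, which held 5916 and 6426 counts against 1047 and 1204 for Gss.

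The glutaredoxins of iron-sulfur cluster assembly stood above those that reduce mixed disulfides. Glrx5, a mitochondrial carrier of iron-sulfur clusters whose loss blocks haem synthesis in zebrafish, had 62.7 and 58.7 TPM. Glrx3, its cytosolic relative, had 32.2 and 32.9 TPM. Glrx3 was below Glrx5 by a log2 ratio of -0.88 ± 0.09, but without the length correction the ratio was 0.09. The only Glrx5 transcript had 930 nt as counted and has 2925 nt in GENCODE M21, so the length-corrected ratio is uncertain. Glrx, the classic cytosolic disulfide reductase, had 7.40 and 7.70 TPM, and the mitochondrial and nuclear Glrx2 had 7.64 and 4.80. These neighbours could not be ordered by gene total, since Glrx over Glrx2 was -0.04 in replicate 1 and 0.58 in replicate 2, a mean of 0.27 against a limit of 0.44. The ratio passed at 0.59 without the length correction, and at 1.18 on protein-coding transcripts alone.

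Glutathione transferases, which join glutathione to electrophiles, had the lowest median of the member groups, at 0.41 ± 0.0495 TPM. Of the 8, 3 were detected, or 37.5%, near the 38.7% of all nuclear protein-coding genes. The median over all nuclear protein-coding genes was 0.055 TPM. Gstp1 had 5.54 and 5.22 TPM, Gsto1 5.23 and 4.03, and the microsomal Mgst3 4.20 and 5.41. Gstp1 has a close copy, Gstp2, so the division of reads between them is uncertain; Gstp2 had 0 counts in both libraries, and the deposited posterior SD of the Gstp1 count was 0.0108 and 0.00662 of its mean. Gsta4, which handles the lipid peroxidation product hydroxynonenal, lay under the threshold, at 0.87 and 0.57 TPM from 109 and 74 counts. Mgst2 had 3 and 17 counts. Gstm1, Gstm5 and Mgst1 had 0 counts in replicate 1, and 4, 2 and 2 counts in replicate 2. Gstm1 (chromosome 3, 108012255 to 108017973, minus strand) and Gstm5 (chromosome 3, 107895821 to 107898686, plus strand) belong to 1 gene cluster. Gstm2, Gstm3, Gstm4, Gstm6 and Gstm7 of the same family, chosen after their values were seen, also lay under the threshold. Other transferase genes outside the members were likewise chosen after their values were seen. Gstz1 had 8.69 and 8.82 TPM, Gstt2 6.28 and 7.46 and Gstcd 4.22 and 4.08. Gsta1, Gsta2, Gsta3, Gstp2, Gstt1, Gstt3, Gstk1 and Gsto2 lay under the threshold.

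Among the remaining enzymes, Msrb1, a selenoprotein that reduces one form of oxidized methionine, had 7.26 and 6.01 TPM. Msra, which reduces the other form, had 2.48 and 2.54, and the log2 ratio of Msra over Msrb1 was -1.12 ± 0.18. Without the length correction that ratio was -0.27, within its limit. Srxn1, sulfiredoxin, rescues overoxidized peroxiredoxins; it had 3.27 and 3.65 TPM. Nqo1, a quinone reductase used as a marker of NRF2 activity, had 2.45 and 2.33 TPM. Srxn1 and Nqo1 could not be ordered, at a ratio of 0.39 ± 0.12 against a limit of 0.44; it passed at 0.48 in replicate 2 alone, and turned to -0.21 on protein-coding transcripts. Both stood low, above 25.5% and 15.1% of detected nuclear protein-coding genes.

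The sites that NRF2, NF-E2 and BACH factors bind with small MAF proteins were looked up in RefSeq promoters (GRCm38.p6, 250 bases before to 50 bases after each start). TGACTCAGC and TGAGTCAGC were searched on both strands; either was found in the promoters of 0.929% of 27025 genes. Of the 33 members with a promoter, 3 held one: Prdx1, Gstp1 and Srxn1. They are shown with 10 flanking bases, the matched letters in capitals.
Prdx1: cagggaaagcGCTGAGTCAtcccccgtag
Gstp1: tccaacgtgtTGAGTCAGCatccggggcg
Srxn1: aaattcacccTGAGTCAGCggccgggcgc
The Prdx1 match (promoter window chr4:116685349-116685648, plus-strand gene) is TGACTCAGC read on the opposite strand, and begins 133 bases before the start. The Gstp1 match (window chr19:4037863-4038162, minus-strand gene) begins 74 bases before it and the Srxn1 match (window chr2:152105274-152105573, plus-strand gene) 45 bases before it. Mean levels of the 3 genes by gene total were 53.6, 5.38 and 3.46 TPM. Whether a match goes with RNA level was not tested. A looser pattern, TGACNNNGC, which includes TGACTCAGC, matched 7 of the 33 members and 14.0% of genes with a promoter. A match describes the sequence only; no binding was measured.

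Of the 38 genes, 14 have a single annotated transcript in the tables, among them Prdx3, Txn1, Txnrd1, Sod1, Sod2, Gclc and Nqo1. For 18 detected members with more, the leading transcript held a median of 59.5% of the gene's TPM. The leader was the same in both libraries for 15 of these 18, against 88.2% of 6210 detected nuclear protein-coding genes with several transcripts. It changed for Prdx6, Txnrd2 and Gclm. Ranked by reads, these 3 kept their leader, and among the 18 only Prdx5 changed.

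Several members had much of their TPM on transcripts not annotated as protein-coding. For 5 of the 18 this share averaged 20% or more over the libraries, against 36.0% of the 6210 genes, and the median share was 6.25% for the 18 and 11.0% for the 6210. In Prdx6 it was 60.8% and 44.0%, mostly Prdx6-208, a nonsense-mediated decay transcript of 1294 nt with 43.2% and 33.6%. The coding Prdx6-202 of 2387 nt held 37.1% and 53.9%. In Glrx2 the share was 57.4% and 50.8%, led by the retained-intron transcript Glrx2-212 of 420 nt. In Prdx2 the retained-intron transcript Prdx2-205 of 549 nt held 34.3% and 35.7% of TPM but 12.8% and 14.4% of the reads, because TPM divides by length. In Gclm the share was 41.5% and 51.0%, and in Srxn1 it was 47.1% and 41.4%. Short transcripts weigh more in TPM than in reads: the coding Gclm-201 held 42.5% and 36.5% of TPM but 89.6% and 84.1% of reads.

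**Figure D3:**
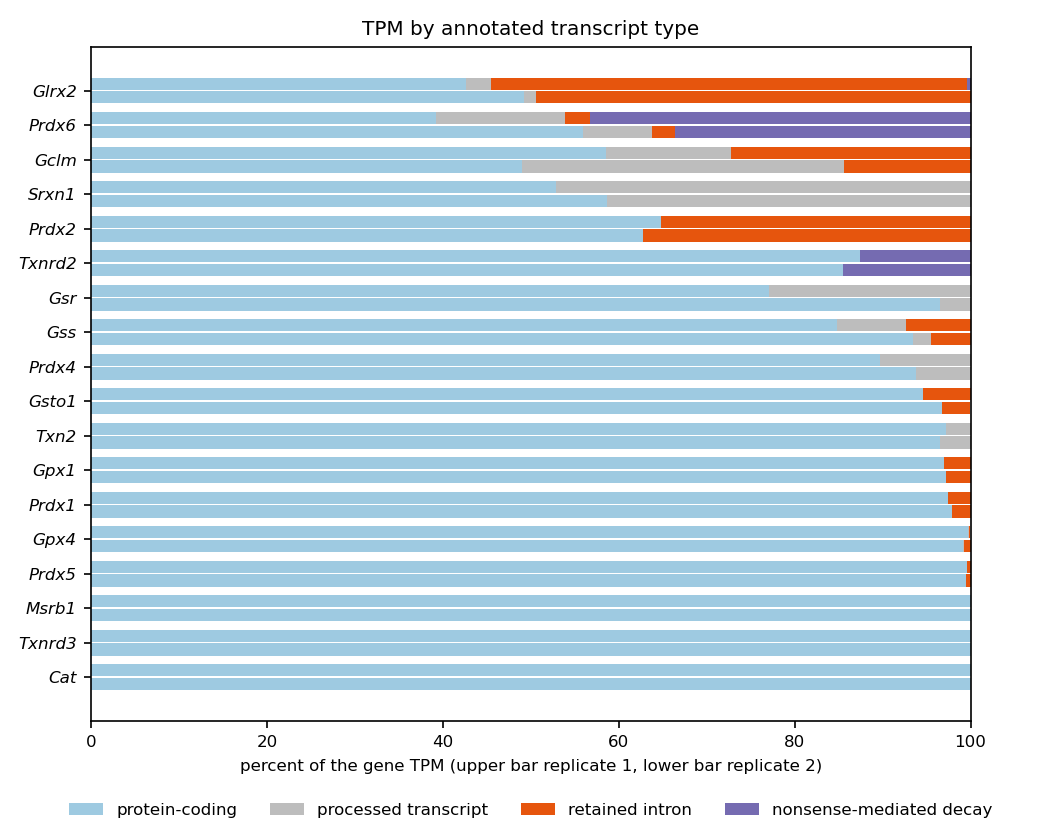
Percent of each gene's TPM by annotated transcript type for the 18 detected members with at least 2 transcripts, with replicate 1 as the upper and replicate 2 as the lower bar. Glrx2, Prdx6, Gclm, Srxn1 and Prdx2 have the largest shares outside protein-coding transcripts, and Cat, Txnrd3 and Msrb1 have none.

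Among coding transcripts, Gpx4 was carried by 2. Gpx4-202, with 594 coding bases, held 52.2% and 58.1% of Gpx4 TPM, and Gpx4-207, with 474 coding bases, held 47.5% and 41.0%. For Gpx1, the transcript with the annotated TGA codon, Gpx1-201, held 48.8% and 40.4%, and Gpx1-204, whose annotation marks no such codon, held 41.0% and 39.5%. The annotated TGA codon of Txnrd2 lies on Txnrd2-203 alone, with 33.7% and 51.1% of Txnrd2 TPM and 58.9% and 66.0% of its reads. By reads Gpx1-201 held 63.4% and 53.9% of Gpx1, and Gpx1-204 held 27.3% and 27.6%. For Prdx1, Prdx1-204 of 2294 nt held 67.0% and 69.8% of TPM and 91.4% and 92.1% of reads. In Gsr the processed transcript Gsr-202 took 21.9% of TPM in replicate 1 and 0% in replicate 2, while the coding Gsr-201 had 11.5 and 12.1 TPM. The higher Gsr TPM total of replicate 1 was therefore on that transcript, which held 5.52% and 0% of Gsr reads. In reads the Gsr total was not higher in replicate 1, at 5070 and 5125 counts.

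Few of the enzymes differed between the libraries. With counts scaled by TMM, which corrects for differences in library composition, 33 members had at least 10 expected counts over both libraries, and 1 differed by 1.5-fold or more, against 31.8% of all 18383 genes with that many counts (11.4% higher and 20.4% lower in replicate 2) and 24.6% of nuclear protein-coding genes. No test was run, since 1 library stands on each side. The 1 member was Mgst2, higher in replicate 2, with only 3 and 17 counts. None of the 32 members with at least 100 counts differed by 1.5-fold, against 7.26% of all genes and 4.74% of nuclear protein-coding genes at that depth. The nearest was Mgst3, 1.49-fold higher in replicate 2, followed by Srxn1 at 1.40-fold and Prdx2 at 1.36-fold. The members' median absolute log2 difference was 0.18, against 0.15 for nuclear protein-coding genes at that depth. In TPM, where detected nuclear protein-coding genes shifted by a median log2 of -0.14 in replicate 2 over replicate 1, 18 detected members were lower and 12 higher in replicate 2, and Txnrd3 was equal.

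**Figure D4:**
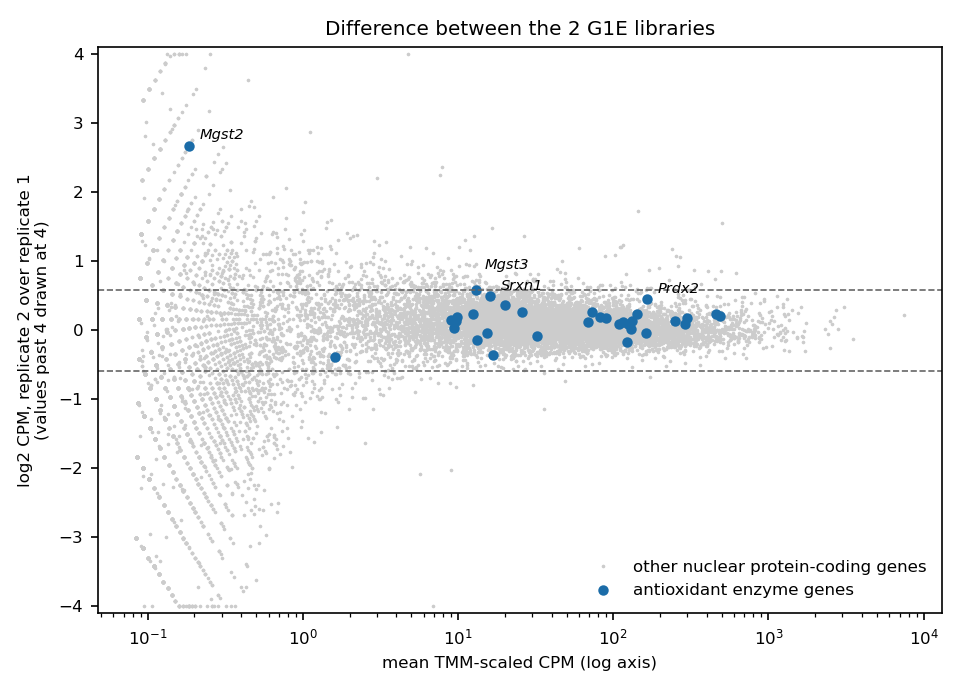
Log2 difference in TMM-scaled CPM, replicate 2 over replicate 1, against mean CPM (log axis), for nuclear protein-coding genes with counts in both libraries. Dashed lines mark 1.5-fold; among the members drawn, Mgst2 alone lies outside them, and Mgst3 lies at 0.58, just inside.

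Regulators of these enzymes were mostly present: the list had 12 of its 13 genes past the threshold and a median of 7.64 ± 1.13 TPM. Sqstm1, the autophagy receptor that binds KEAP1, led at 127 and 115 TPM, followed by Txnip, an inhibitor of thioredoxin, at 55.2 and 56.3 and by Cul3, the ubiquitin ligase scaffold that KEAP1 recruits, at 52.4 and 42.5. Bach2 was lowest, at 0.04 and 0.06 TPM. Outside those named by level, and chosen after their values were seen, the activator Nfe2l2 (NRF2) had 18.4 and 16.8 TPM, its adaptor Keap1 8.59 and 8.34, and the haem-sensing repressor Bach1 6.01 and 5.48.

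Of 24 genes that supply glutathione precursors and NADPH or clear related products, 18 were detected. Glo1, which uses glutathione to remove methylglyoxal, had 149 and 119 TPM, and the pentose phosphate enzymes Taldo1 and Tkt had 79.9 and 95.6, and 61.7 and 72.3. Chac1, a glutathione-degrading enzyme of the stress response, was at 0 TPM in both libraries. The cystine carrier Slc7a11, chosen after its values were seen, was nearly absent at 0.18 and 0.16 TPM. Of 37 further enzymes of the same families, 14 were detected, led by the thioredoxin-related Txnl1 at 28.87 and 24.03 TPM and Txndc9 at 22.2 and 19.3, and by the leukotriene synthesis helper Alox5ap at 19.4 and 18.9, while Gstm3 was among those at 0. All 10 genes listed for selenoprotein synthesis were detected. Selenbp1, which binds selenium and is not itself read through TGA, led at 67.9 and 75.5 TPM. It was followed by the selenophosphate synthetase Sephs2 at 22.03 and 21.09 and its relative Sephs1 at 10.3 and 9.04. Scly, which frees selenium from selenocysteine, was lowest at 1.94 and 1.42.

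**Figure D5:**
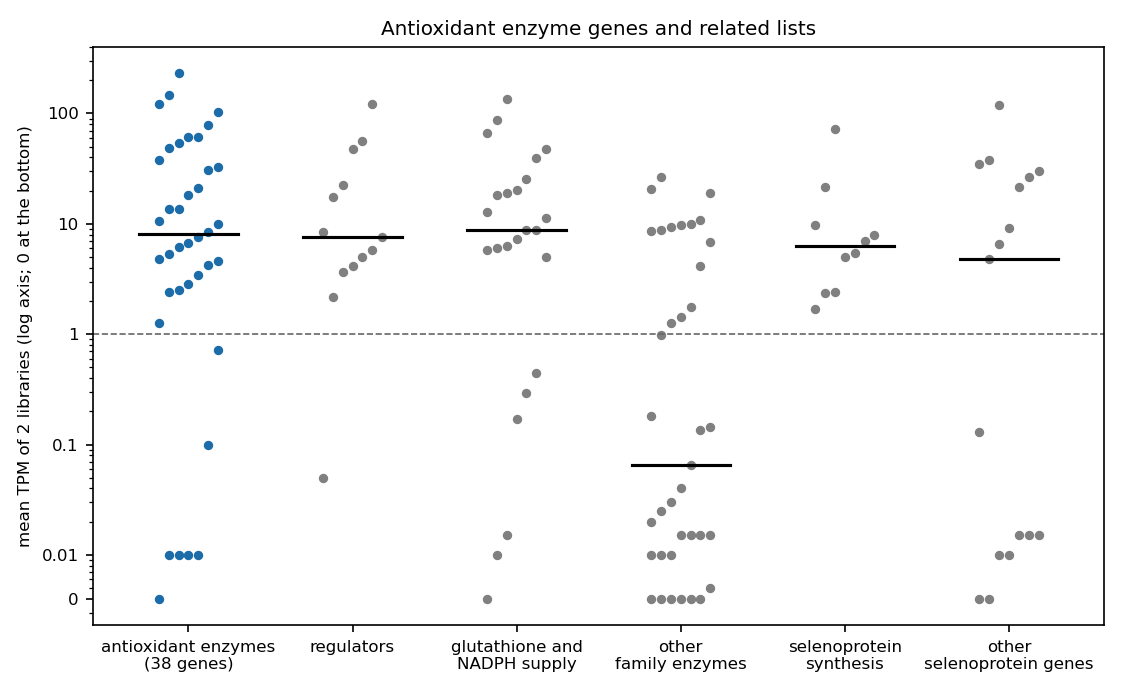
Mean TPM over both libraries (log axis) of the 38 antioxidant enzyme genes and of related lists, with each list's median as a bar and 1 TPM as a dashed line. The further family enzymes have a median of 0.065 TPM, under the line, and all genes listed under selenoprotein synthesis lie above it.

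The labelled cell type carried its markers, mast cell markers were in part present, and the other lineages listed were mostly missing. All 12 erythroid progenitor markers were detected, led by Car2 at 269 and 275 TPM, Tfrc at 114 and 98.5 and Kit at 96.9 and 80.0, with summed levels of 679 and 646 TPM. Gata1 RNA itself stood at 7.06 and 7.13 TPM in cells labelled as lacking it; a gene total does not check which part was altered. Of 8 macrophage and granulocyte markers 1 was detected, Lyz2 at 1.34 and 1.33 TPM, with S100a8 at 0, and none of 5 lymphoid markers (highest Lck at 0.31 and 0.38) or of 8 fibroblast and embryonic stem cell markers (highest Col1a1 at 0.34 and 0, Zfp42 at 0). Of 5 mast cell markers 3 were detected, led by Cpa3 at 113 and 97.1 TPM, with Mcpt8 at 0. Cma1, chosen after its values were seen, had 36.1 and 36.4 TPM. The erythroid markers Klf1 and Epor, chosen in the same way, had 9.53 and 9.73, and 2.24 and 3.24 TPM. The mast cell list summed to 153 and 137 TPM, and whether a part of the enzyme RNA came with mast cell genes was not tested.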

How the data were processed

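The authors deposited 1 gene table and 1 transcript table per library, not pooled. Per the file headers they hold an expected count (estimated reads), TPM, FPKM and posterior means. The deposited TPM interval bounds were used as a signal per gene, level not given. Transcript tables add a percent, the transcript's share of gene TPM, per the file headers. Build and annotation (mm10, GENCODE M4) are those of the deposited read-me texts. The aligner, quantifier and strand setting were not given in the sources used here.

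Symbols came from GENCODE M21 (42462 of 43346 genes matched). Spike-in and numeric rows held 3.44e-05% and 6.80e-05% of counts and were left out. TMM factors (edgeR 4.0.16) and alternative size factors (DESeq2 1.42.0, R 4.3.3) used expected counts, rounded for DESeq2. Python 3.11.15 did the rest. The calculation of fold calls was checked on simulated counts that held counting error only. That check does not cover the spread between the real libraries. The members, lists and pairs were chosen with earlier results of these data known. All 38 members were named; of each related list the 3 highest and the lowest. Counting floors cover counting error only. Pairs on protein-coding transcripts alone were added after seeing the data. Overlaps on opposite strands stay uncertain, and some are not reported here. Of 149 member transcripts, 127 have the same length in M21.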

Additional observations from a re-analysis of the deposited data

How the results depend on the processing

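The counts of detected members, pairs, leading transcripts and shared reads (0 members) kept within 1.5 times under every alternative run. The member median of 8.02 TPM became 24.01 as FPKM, 7.96 with posterior means, 45.9 with TPM rescaled to nuclear protein-coding genes and 13.5 over detected members; leaving out replicate 1 or 2 gave 8.11 and 8.06. Members that differ between libraries numbered 5 with no filter on low counts (Gpx7, Gstm1, Gstm5, Mgst1 and Mgst2) and 0 at 100 counts. Without length correction Prdx1/Prdx2, Gsr/Txnrd1 and Glrx3/Glrx5 reversed, at log2 ratios of 0.61, -0.52 and 0.093; 4 pairs gained a call (Prdx1/Prdx2, Gsr/Txnrd1, Gpx1/Gpx4 and Glrx/Glrx2) and 3 lost it (Glrx3/Glrx5, Prdx2/Cat and Msra/Msrb1). On protein-coding transcripts alone, chosen after seeing the data, 15 pairs passed: Prdx1/Prdx6 (0.11, reversed) and Gclm/Gclc (0.19) lost the call, Glrx/Glrx2 (1.18) gained it, and Prdx1/Prdx2 (0.42), Gsr/Txnrd1 (-0.18) and Srxn1/Nqo1 (-0.21) reversed within their limits. Leaving out replicate 1 or 2 gave -0.38 and 0.011 for Prdx1/Prdx2, -0.017 and 0.060 for Gsr/Txnrd1, and 0.58 and -0.041 for Glrx/Glrx2. Without replicate 1, Gpx1/Gpx4 (0.75), Srxn1/Nqo1 (0.48) and Glrx/Glrx2 passed, 19 pairs in all; with 2 pooled SDs Gpx1/Gpx4 and Srxn1/Nqo1 passed, 18 in all. The cause was not tested. No paired analysis was possible because the labels give 1 group. The 2 libraries allow no test of a single gene, and genes with a few counts have no usable ratio.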

Other observations

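Selenoprotein genes outside the 38 were also looked at, by the GENCODE annotation of a selenocysteine codon. Of 17 such genes, 9 were detected in both libraries. Selenof, a protein of the endoplasmic reticulum, was highest at 121 and 118 TPM, a level near that of Sod1. Selenok had 40.4 and 35.3 TPM, Selenot 37.2 and 31.9, Selenoh 29.6 and 30.9 and Selenow 28.1 and 25.1. The 3 iodothyronine deiodinases Dio1, Dio2 and Dio3 stood at or under 0.03 TPM, Selenom had 0 counts in both libraries, and the plasma carrier Selenop had 0.15 and 0.11 TPM.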
